A study of Homo sapiens with 61 samples.

Results

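The ATP-binding cassette (ABC) genes described here are 9 drug efflux pump genes, ABCB1, ABCB4, ABCC1, ABCC2, ABCC3, ABCC4, ABCC5, ABCC10 and ABCG2, out of 58440 genes in each of 2 deposited count tables. ABCB1 was chosen by its measured values in these same libraries, namely its rise with vincristine and its altered untreated level, so those values are given as a description with no test. The other 8 were listed as genes of the same drug efflux system. All 9 were found by symbol in both tables. A filter on low counts left ABCB1 and 5 of the other 8 genes to be tested in experiment 1 (18235 genes in all), and ABCB1 and 6 of the other 8 in experiment 2 (20759 genes). ABCC3 and ABCG2 fell below the filter in both experiments and ABCB4 in experiment 1.

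These proteins use ATP to move molecules out of the cell. ABCB1 encodes P-glycoprotein, a broad pump of bulky hydrophobic drugs whose classic substrates include vincristine, and in the brain it is best known from the endothelium of the blood-brain barrier. The ABCC genes encode the multidrug resistance proteins, which export organic anions and conjugates, and ABCG2 encodes the breast cancer resistance protein, a pump that works as a dimer.

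Neurons were produced by switching on the transcription factor NGN2 in WTC11, an induced pluripotent stem cell line of human origin that is widely used. Vincristine, which blocks microtubule assembly, was given at 5 nM for 16 hours against DMSO vehicle (called untreated), at day 14 in the series' description, while the sample protocols give a span of 10 to 14 days, and poly(A) RNA was sequenced in 61 libraries. In experiment 1, whose NGN2 cassette responds to doxycycline, each of 4 lines had 4 libraries per treatment. The lines were WT, DLK KO (knockout of the kinase gene MAP3K12), LZK KO (knockout of the related MAP3K13) and DLK LZK double KO. Experiment 2 used neurons that all carried the CRISPR interference machinery, with a lentiviral guide RNA: a scrambled control (Control gRNA, 5 untreated and 5 vincristine libraries), ATF2 gRNA (5 and 4) or JUN gRNA (5 and 5). ATF2 and JUN encode transcription factors that can pair with each other. Whether a knockout line was 1 clone, and whether replicates came from separate differentiations, is not given in the sources used here, so the p-values measure only the spread between these libraries.

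Total counts per library were 8.41 to 14.6 M (M standing for mega) in experiment 1 and 38.9 to 88.4 M in experiment 2. Levels are CPM (counts per M counts of the library) on totals scaled by TMM, compared within an experiment only. In the targeted lines, mean MAP3K12 was 19.7 to 30.3 CPM in the 4 groups of DLK KO and double KO against 91.0 in untreated WT, and mean MAP3K13 was 29.6 to 36.6 CPM in the 4 groups of LZK KO and double KO against 99.1. Mean ATF2 was 0.526 and 0.573 CPM in the ATF2 gRNA groups against 128.6 in untreated Control gRNA, and JUN was 2.87 CPM in untreated JUN gRNA against 88.5. JUN was also low in the ATF2 gRNA groups, at 21.0 and 20.5 CPM, so both guide lines had less JUN than Control gRNA. In experiment 1, untreated JUN was 55.3 CPM in DLK KO and 39.6 in double KO against 140.0 in WT, and ATF2 was 71.0 in DLK KO against 140.9. The library WT vincristine 4 stood apart, with JUN at 288.9 CPM against 538 to 629 in the other 3. All 7 neuron markers had a mean of at least 1 CPM in every group. Their sum was lower in DLK KO, at 1594 to 1769 CPM untreated and 1680 to 1729 with vincristine, than in WT, at 2892 to 3037 and 3038 to 3277. The part of this in the DLK KO differences was not tested. None of 5 endothelial markers (PECAM1, CDH5, CLDN5, VWF, TEK) reached that mean in any of the 14 groups, their sum never passed 3.73 CPM in a library, and CDH5 and CLDN5 were at 0 in every untreated Control gRNA library.

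Because ABCB1 carries the main pattern, its promoter windows are shown first. ABCB1 (ENSG00000085563.14) spans 87503633 to 87713323 on the minus strand of chromosome 7 (GRCh38), with 5806 exonic bases. RefSeq (GRCh38.p14) gives 2 start sites for it in the table used, one near the upper end of the gene, at 87713295, and one inside it, at 87600884. The 250 bases before each start, 5′ to 3′ on the minus strand, were searched on both strands for TGANTCA (the AP-1 motif, bound by JUN and FOS proteins), TGACGTCA (the CRE motif, bound by ATF and CREB proteins), CCAAT and GGGCGG, and matches are in capitals.
ABCB1 promoter 1 (chr7:87713296-87713545): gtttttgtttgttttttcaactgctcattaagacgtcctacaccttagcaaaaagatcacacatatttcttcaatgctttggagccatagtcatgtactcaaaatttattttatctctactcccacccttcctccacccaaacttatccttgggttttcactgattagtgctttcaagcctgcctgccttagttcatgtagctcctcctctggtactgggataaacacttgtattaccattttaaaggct
ABCB1 promoter 2 (chr7:87600885-87601134): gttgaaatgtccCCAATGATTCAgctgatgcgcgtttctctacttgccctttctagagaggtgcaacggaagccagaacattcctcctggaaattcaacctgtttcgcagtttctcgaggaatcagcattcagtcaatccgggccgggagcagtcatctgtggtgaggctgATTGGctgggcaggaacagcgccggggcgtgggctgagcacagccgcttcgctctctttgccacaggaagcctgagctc
The window of the inner start held 1 TGANTCA match, beginning 234 bases before the start, and 2 CCAAT matches, of which one shares 1 base with it and the other, 79 bases before the start, lies on the opposite strand. The base at the open centre of the TGANTCA match was T, where the usual AP-1 motif has C or G. It was therefore a match to the open form only. The window of the outer start held 0 matches to the 4 motifs. Of 35116 windows of this length in the RefSeq table, 6.57% held TGANTCA, 1.65% TGACGTCA, 32.0% CCAAT and 42.6% GGGCGG. The counts are per gene, so they do not say which start was used.

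In wild-type neurons, ABCB1 went from near the limit of these libraries to a moderate level with vincristine. The 4 untreated WT libraries held 0.669, 0.652, 0.913 and 1.29 CPM (7 to 13 counts each), and the 4 vincristine libraries held 16.5, 12.1, 17.7 and 16.6 CPM. Every vincristine library was above every untreated one, with means of 0.882 ± 0.298 and 15.7 ± 2.47 CPM (SD, n = 4 each). The fitted log2 fold change was 4.14 ± 0.22 (SE), or 17.7-fold, and 4.12 without the library WT vincristine 4.

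In either single kinase knockout ABCB1 was still low after vincristine. DLK KO held 0.765, 1.10, 0.442 and 0.430 CPM untreated and 0.971, 1.02, 1.66 and 0.762 CPM with vincristine, ranges that overlap. LZK KO held 0.114, 0.722, 0.0925 and 0.353 CPM untreated, on 1 to 6 counts a library, and 0.554, 0.950, 0.716 and 0.605 CPM with vincristine. The log2 fold change with vincristine was 0.70 ± 0.36 in DLK KO and 1.19 ± 0.51 in LZK KO, the latter resting on 11 counts over the 4 untreated libraries and moving to 1.92 without LZK KO untreated 2. The difference from the WT response was -3.45 ± 0.47 in DLK KO and -2.96 ± 0.67 in LZK KO on the log2 scale.

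The double knockout differed from both single knockouts in its starting level. Its untreated libraries held 9.77, 6.74, 8.14 and 8.85 CPM, each above every untreated library of the other 3 lines, and its vincristine libraries held 10.2, 8.28, 8.33 and 8.54 CPM. The untreated mean was 8.37 ± 1.28 CPM (SD, n = 4), 9.36-fold that of WT (log2 3.23 ± 0.24). The change with vincristine was 0.08 ± 0.17 on the log2 scale and was -0.020 without DLK LZK double KO untreated 2, so its sign depends on that library. The difference from the WT response was -4.07 ± 0.29. Against vincristine-treated WT, the vincristine-treated level stood at -0.84 ± 0.16 in the double KO, -3.81 ± 0.21 in DLK KO and -4.46 ± 0.24 in LZK KO.

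In Control gRNA neurons the treated and untreated libraries were also far apart. Their untreated libraries held 0.478, 0.661, 0.695, 0.909 and 0.888 CPM, and their vincristine libraries held 49.8, 49.7, 49.2, 46.9 and 45.8 CPM. The vincristine libraries lay within a narrow band far above the untreated ones, with means of 0.726 ± 0.178 and 48.3 ± 1.82 CPM (SD, n = 5 each). The log2 fold change was 6.05 ± 0.25, or 66.1-fold.

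With the ATF2 guide ABCB1 was high before any drug, as in the double knockout. The untreated ATF2 gRNA libraries held 7.44, 6.97, 6.68, 6.96 and 7.48 CPM, all above every untreated Control gRNA library, a log2 difference of 3.28 ± 0.25 or 9.72-fold. With vincristine the 4 libraries held 14.1, 10.1, 5.38 and 8.32 CPM, a wider spread that takes in the untreated range. The log2 change with vincristine was 0.42 ± 0.21, a difference of -5.63 ± 0.33 from the Control gRNA response. The vincristine-treated level stood at -2.35 ± 0.21 against Control gRNA on the same scale.

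With the JUN guide ABCB1 was low untreated and higher with vincristine. Untreated JUN gRNA libraries held 0.110, 0.492, 0.322, 0.393 and 0.278 CPM, and vincristine libraries held 1.46, 2.54, 1.85, 2.70 and 1.03 CPM. The vincristine libraries were all above the untreated ones, and all were below the lowest vincristine library of ATF2 gRNA. The log2 fold change was 2.61 ± 0.30 (6.09-fold). The difference in response was -3.44 ± 0.44 for JUN gRNA minus Control gRNA and -2.19 ± 0.37 for ATF2 gRNA minus JUN gRNA. Untreated, JUN gRNA lay at -1.20 ± 0.35 against Control gRNA, with ranges that overlap at 0.478 to 0.492 CPM.

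**Figure D1:**
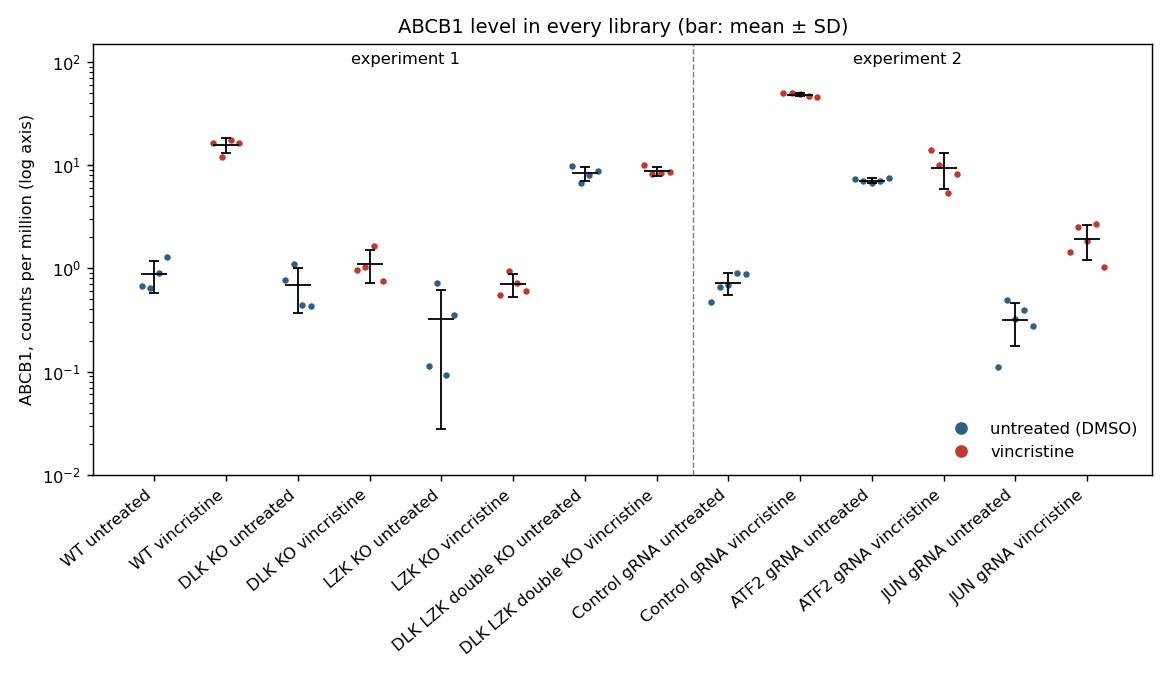
ABCB1 level in each of the 61 libraries, as TMM-scaled CPM on a log axis, by group, with blue for untreated and red for vincristine and bars for the mean ± SD. WT and Control gRNA rise from at most 1.29 CPM to 12.1 to 17.7 and 45.8 to 49.8 CPM, while the double KO and ATF2 gRNA groups start between 6.68 and 9.77 CPM.

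Ordered by mean, experiment 1 ran from vincristine-treated WT through vincristine-treated and untreated double KO to DLK KO with vincristine, untreated WT, LZK KO with vincristine, untreated DLK KO and untreated LZK KO. Only the first step and the step below untreated double KO separate groups that do not overlap. In experiment 2 the order was Control gRNA with vincristine, ATF2 gRNA with vincristine, untreated ATF2 gRNA, JUN gRNA with vincristine, untreated Control gRNA and untreated JUN gRNA. There the neighbours that overlap were the 2 ATF2 gRNA groups and the last 2 groups.

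Other markers moved beside ABCB1. The summed level of the neural progenitor markers (SOX2, PAX6, NES, VIM; 4 of 4 at a mean of at least 1 CPM in every group) went from 779 to 824 CPM in untreated WT to 1054 to 2094 with vincristine, and from 1325 to 1417 to 2559 to 2655 in Control gRNA. It also went from 226 to 293 CPM to 520 to 634 in DLK KO and from 545 to 697 to 1048 to 1248 in LZK KO, where ABCB1 stayed low, and from 965 to 1088 to 1668 to 1774 in JUN gRNA. It was 286 to 303 CPM over both groups of the double KO, where ABCB1 was also high, and 727 to 838 over both ATF2 gRNA groups. PAX6, the lowest of the 4, did not always move with this sum, which the other genes of the list carried. Its untreated and vincristine means were 1.72 and 1.63 CPM in WT, 4.07 and 4.01 in LZK KO and 1.97 and 2.54 in the double KO. They were 1.95 and 2.76 CPM in DLK KO, 4.16 and 5.04 in Control gRNA, 3.16 and 3.78 in JUN gRNA and 5.34 and 4.79 in ATF2 gRNA. The pluripotency markers (POU5F1, NANOG, LIN28A; 1 of 3 at a mean of at least 1 CPM in every group) summed to 51.7 to 58.0 CPM in untreated double KO against 2.11 to 2.77 in WT, and to 14.5 to 18.2 in untreated ATF2 gRNA against 3.12 to 5.13 in Control gRNA. They summed to 12.0 to 18.1 CPM in untreated LZK KO, where ABCB1 was lowest. NANOG, the lowest of the 3, did not share these higher sums, which the other genes of the list carried. Untreated, its mean was 0.222 CPM for WT, 0.117 for double KO and 0.0231 for LZK KO. It was 0.00362 CPM for untreated Control gRNA against 0 with the ATF2 guide. With vincristine the order was reversed for double KO, at 0.205 CPM against 0.0253 for WT. These means are near the floor, so no direction can be read from them. The markers of dividing cells (MKI67, TOP2A) summed to 51.3 to 56.4 CPM in untreated LZK KO, 16.8 to 21.7 in double KO, 12.0 to 13.5 in DLK KO and 5.03 to 7.36 in WT. The astrocyte markers (GFAP, AQP4, ALDH1L1, SLC1A3) summed to 5.17 to 6.63 CPM in untreated ATF2 gRNA against 1.23 to 1.89 in Control gRNA, with 1 of 4 at a mean of at least 1 CPM in both. In bulk RNA more cells of a type and more RNA per cell cannot be told apart, and the part of these markers in the ABCB1 levels was not tested.

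The genes around ABCB1 did not follow it in size. Within 500 kb of the lower end of ABCB1, 10 other genes were tested in experiment 1 and 12 in experiment 2. RUNDC3B, which lies on the opposite strand and overlaps the ABCB1 gene body with 0 shared exonic bases, rose by 0.23 ± 0.07 in WT (edgeR quasi-likelihood test, Benjamini-Hochberg adjusted p = 0.0090) and by 1.08 ± 0.08 in Control gRNA (adjusted p = 2.8e-16). It was higher by 0.50 ± 0.08 in untreated ATF2 gRNA than in Control gRNA (adjusted p = 3.8e-07), and its change in the double KO with vincristine was 0.16 ± 0.07 (adjusted p = 0.80). ABCB4, the nearest relative of ABCB1 in sequence and its neighbour, had 44 counts or fewer in every library. TMEM243 was higher by 1.06 ± 0.26 with vincristine in Control gRNA (adjusted p = 0.00090) and by 1.77 ± 0.26 in untreated ATF2 gRNA (adjusted p = 1.8e-07), on at most 197 counts. In untreated ATF2 gRNA, DBF4 (0.79 ± 0.11, adjusted p = 6.7e-08) and ADAM22 (0.60 ± 0.05, adjusted p = 9.8e-13) were also higher than in Control gRNA. DMTF1, a transcription factor gene, rose by 0.35 ± 0.07 in WT (adjusted p = 0.00011) and by 0.25 ± 0.07 in Control gRNA (adjusted p = 0.0029). DBF4, which encodes the activator of a DNA replication kinase, fell by 0.56 ± 0.12 with vincristine in WT (adjusted p = 0.00027) and stood at 0.11 ± 0.11 in Control gRNA (adjusted p = 0.53). No neighbour tested matched the ABCB1 log2 change of 4.14 and 6.05 in these contrasts, the next largest being 1.21 ± 0.51 for AC005076.1 in WT (adjusted p = 0.070) and 1.68 ± 0.91 for ABCB4 in Control gRNA (adjusted p = 0.16). Since ABCB1 was chosen for its large change, this gap in size is no separate result.

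**Figure D2:**
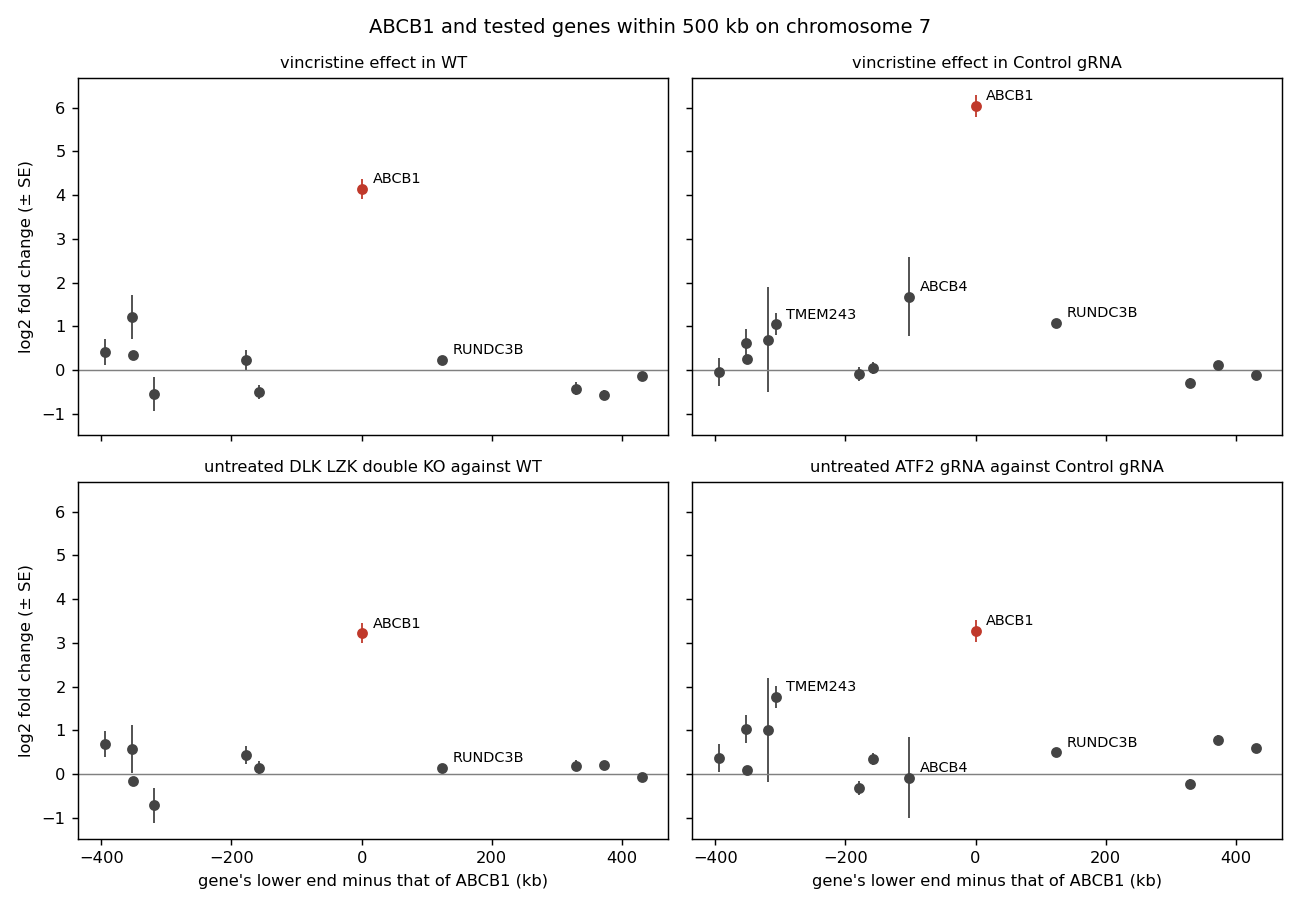
Log2 fold change (± SE) of ABCB1 (red) and of each tested gene within 500 kb (grey) against the distance between the lower ends of the genes in kb, for vincristine in WT and Control gRNA and for the untreated double KO and ATF2 gRNA lines against their controls. ABCB1 is at 4.14, 6.05, 3.23 and 3.28, and the other genes lie between -0.71 and 1.77.

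The 5 genes whose group means followed ABCB1 most closely, out of 16897 genes tested in both experiments, were FOSL2, DIO3OS, COPA, RNF125 and PHF24. The measure was the lower of 2 Pearson correlations of mean log2 CPM, over 8 groups in experiment 1 and 6 in experiment 2. These genes were picked as the highest by it, so it describes likeness and carries no p. FOSL2, an AP-1 family transcription factor gene, had r = 0.983 and 0.962. Its mean log2 CPM was 0.62 in untreated WT, 2.34 with vincristine and 2.14 in untreated double KO. In experiment 2 it was 0.77 in untreated Control gRNA, 4.01 with vincristine and 1.99 in vincristine-treated ATF2 gRNA. FOSL2 was higher in untreated double KO than in untreated WT, and in untreated ATF2 gRNA than in untreated Control gRNA. It was picked for following ABCB1 over these same groups, so this likeness to ABCB1 is no separate result. DIO3OS, a non-coding RNA gene, had r = 0.970 and 0.959, with several groups near the floor. Its mean log2 CPM was -4.59 in untreated Control gRNA and -4.25 and -3.97 in untreated and vincristine-treated JUN gRNA. ABCC3, with 0 counts in every untreated Control gRNA library, stood at -4.81 there. RNF125, a ubiquitin ligase gene, had 0.930 and 0.925, and PHF24 had 0.922 and 0.989. COPA, a coat protein subunit gene of Golgi transport, had 0.953 and 0.937 but moved little, from 7.44 to 7.81 log2 CPM over the groups of experiment 1. Ranking by Spearman correlation instead kept 1 of these 5 genes. The 250-base windows of these 5 genes in the RefSeq table held no TGANTCA or TGACGTCA match.

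**Figure D3:**
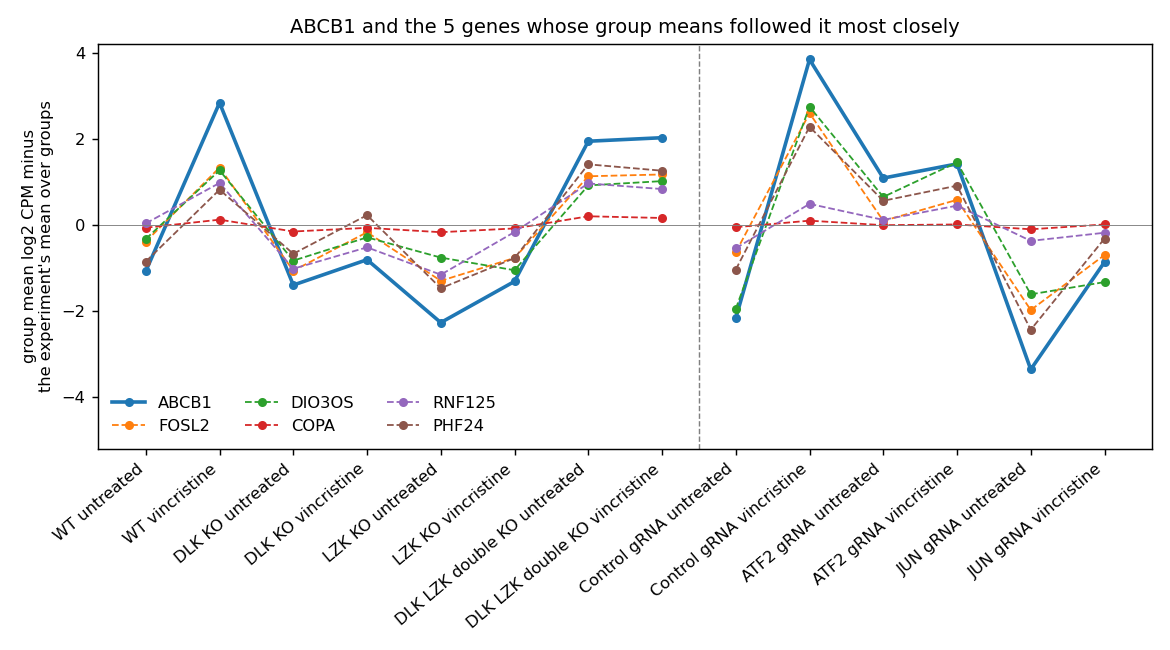
Group mean log2 CPM minus the mean over the groups of the same experiment, for ABCB1 (thick line) and the 5 genes with the most similar pattern, across the 14 groups. Within experiment 2 all 6 are highest in vincristine-treated Control gRNA, and in both experiments ABCB1 has the widest range of the 6 and COPA the narrowest.

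The other pump genes changed little beside ABCB1, which was chosen for its large change. For vincristine in WT, 2 of the 5 others tested were called by the edgeR quasi-likelihood test (adjusted p under 0.05), where 30.2% of all genes were called. In Control gRNA it was 2 of 6, against 35.3% of all genes. In JUN gRNA it was 1 of 6, against 15.9%. With edgeR none was called in DLK KO (6.53% of all genes called), LZK KO (3.88%), the double KO (0.0658%) or ATF2 gRNA (6.10%). In these 4 lines none had an unadjusted p under 0.05 either, and DESeq2 and limma voom (run with sample quality weights throughout) called none. Their median log2 change was -0.31 in WT and 0.11 in Control gRNA, against 0.00 and 0.03 over all tested genes.

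**Figure D4:**
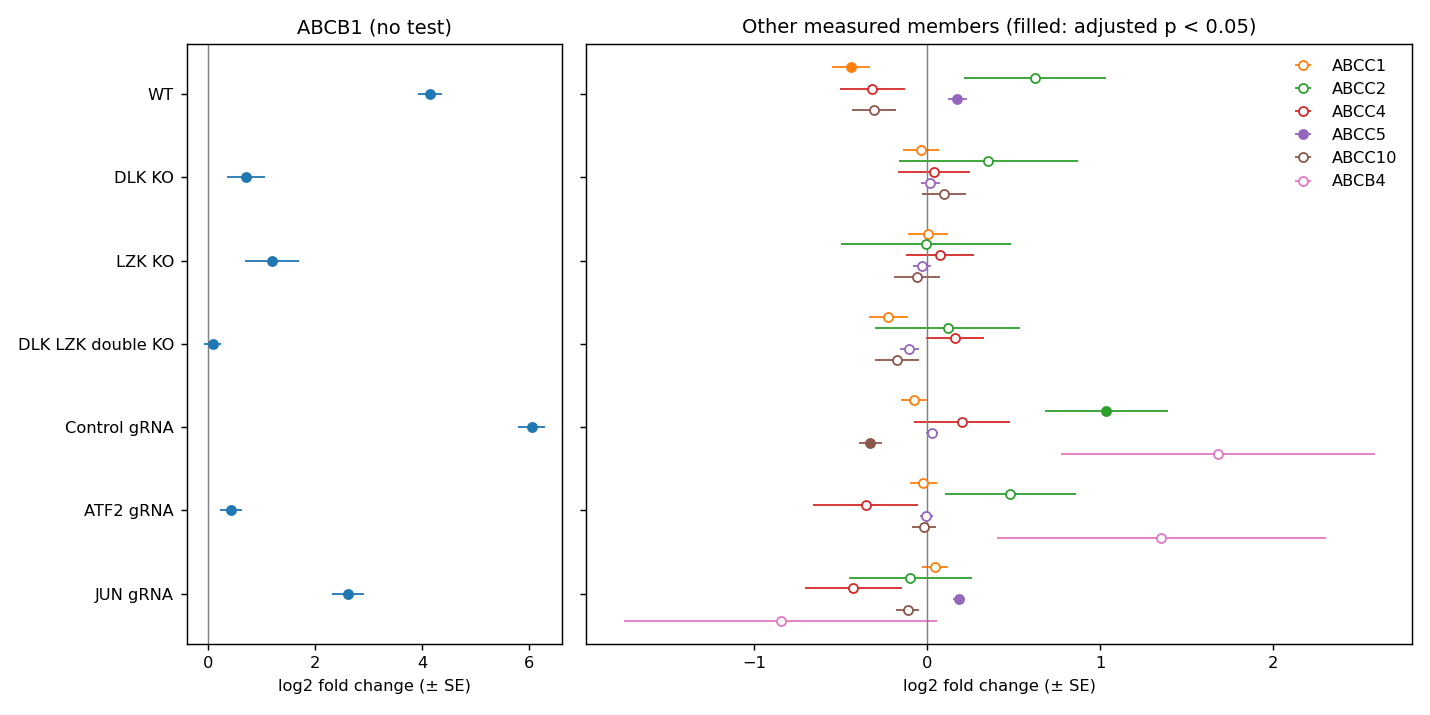
Log2 fold change with vincristine (± SE) in each of the 7 lines, for ABCB1 on the left (description, no test) and for the other members that passed the filter on the right, filled where the adjusted p is under 0.05. ABCB1 reaches 4.14 in WT and 6.05 in Control gRNA, while the called changes of the other genes run from -0.44 to 1.04.

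ABCC5, whose product exports cyclic nucleotides and folates, was the most abundant pump. Per kilobase of exon its mean level was 9.88 to 14.3 CPM per kb in experiment 1 and 18.2 to 21.6 in experiment 2, against 3.07 to 4.16 and 4.92 to 7.52 for ABCC10. The exception to ABCC10 being next was vincristine-treated Control gRNA, where ABCB1 reached 8.32 CPM per kb against 5.97 for ABCC10. ABCC5 (ENSG00000114770.16, chromosome 3, 183919934 to 184018015, minus strand) held 138.4, 143.5, 143.1 and 155.2 CPM in untreated WT and 167.9, 160.4, 174.4 and 151.6 with vincristine. Of these, only the library WT vincristine 4 fell inside the untreated range. ABCC5 rose by 0.17 ± 0.05 (edgeR adjusted p = 0.011), and by 0.21 (adjusted p = 0.0025) without that library, but was not called without WT vincristine 3 (adjusted p = 0.057), with only the 2 groups in the fit (adjusted p = 0.16) or without the filter (adjusted p = 0.23). In the double KO it went the other way, from 125.8, 121.1, 115.7 and 123.7 to 110.7, 120.1, 111.5 and 109.9 CPM, a change of -0.10 ± 0.05 that was not called (edgeR adjusted p = 0.80). The difference between these responses, -0.28 ± 0.08, was called (edgeR adjusted p = 0.0073; 19.4% of all genes were called), though not without the filter (adjusted p = 0.13).

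In experiment 2 ABCC5 rose with vincristine under the JUN guide. Untreated JUN gRNA libraries held 213.0, 215.8, 210.7, 226.8 and 219.0 CPM, and vincristine libraries 252.2, 238.0, 246.1, 241.3 and 256.2 CPM, with no overlap. The change was 0.18 ± 0.03 (edgeR adjusted p = 6.3e-05). Control gRNA stood at 0.02 ± 0.03 and ATF2 gRNA at -0.01 ± 0.04, neither called. The JUN gRNA response exceeded that of Control gRNA by 0.16 ± 0.05 (edgeR adjusted p = 0.017; 15.8% of all genes called) and that of ATF2 gRNA by a difference of -0.19 ± 0.05 for ATF2 gRNA minus JUN gRNA (adjusted p = 0.023; 2.83% of all genes called). The first was lost without Control gRNA untreated 5 (adjusted p = 0.058), without JUN gRNA untreated 5 (adjusted p = 0.060) or without the filter (adjusted p = 0.23). The second was lost without any 1 of 6 libraries, ATF2 gRNA vincristine 3, 4 or 5 and JUN gRNA untreated 1, 3 or 5 (adjusted p = 0.051 to 0.11), with only the groups compared (adjusted p = 0.075) and without the filter (adjusted p = 0.15).

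Against untreated WT, ABCC5 stood at -0.26 ± 0.05 in the double KO (edgeR adjusted p = 0.00013), where 2 of 5 other members were called and 45.7% of all genes. In DLK KO the difference was -0.15 ± 0.05 (edgeR adjusted p = 0.028), one of 4 called members of 5 against 34.5% of all genes. That call was lost without WT untreated 3 or 4 or DLK KO untreated 3 or 4 (adjusted p = 0.056 to 0.15) and without the filter (adjusted p = 0.30). After vincristine ABCC5 was lower than in WT in all 3 knockout lines, at -0.30 ± 0.05 for DLK KO, -0.24 ± 0.05 for LZK KO and -0.53 ± 0.05 for the double KO (edgeR adjusted p = 1.2e-05, 0.00033 and 1.0e-10). All genes were called at 42.0%, 42.7% and 55.6% in these comparisons, which share the WT vincristine libraries, and the members at 2, 1 and 2 of 5. In DLK KO the lowest member value after vincristine, apart from ABCB1, was that of ABCC2, at -1.02 ± 0.43, not called with edgeR (adjusted p = 0.056). It was called with DESeq2 (adjusted p = 0.046), limma voom (-1.76, adjusted p = 0.0025), the replicate block (adjusted p = 0.047), no filter (adjusted p = 0.044) and without DLK KO vincristine 3 (-1.71, adjusted p = 0.0046). ABCC5 was higher in vincristine-treated JUN gRNA than in Control gRNA by 0.20 ± 0.03 (edgeR adjusted p = 5.9e-06; 26.7% of all genes and 2 of 6 members called).

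ABCC10, a pump for which taxanes and vinca alkaloids are reported substrates, fell with vincristine in Control gRNA. ABCC10 (ENSG00000124574.14, chromosome 6, 43427366 to 43450430, plus strand) shares 79 exonic bases, 0.977% of its exons, with DLK2 on the opposite strand. Untreated Control gRNA libraries held 59.3, 63.9, 56.8, 63.9 and 59.9 CPM, and vincristine libraries 44.8, 50.1, 49.6, 49.3 and 47.5 CPM, with no overlap. The change was -0.33 ± 0.07 (edgeR adjusted p = 7.1e-05), a level 0.795 times the untreated one. Untreated ATF2 gRNA libraries were already at 42.4, 38.0, 39.5, 41.6 and 40.3 CPM, all below every Control gRNA library of either treatment. That difference was -0.59 ± 0.07 (edgeR adjusted p = 4.5e-10), and ABCC10 was the 1 of 6 members called, against 39.9% of all genes.

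With vincristine the ATF2 gRNA libraries held 40.5, 37.8, 40.7 and 40.2 CPM of ABCC10. Their change of -0.02 ± 0.07 differed from that of Control gRNA by 0.31 ± 0.10 (edgeR adjusted p = 0.018; 1 of 6 members and 20.6% of all genes called), and the treated level stood at -0.28 ± 0.07 (adjusted p = 0.0013; 2 of 6 and 42.4%). The ABCC10 change with vincristine in Control gRNA and its untreated ATF2 gRNA difference were both negative. Both were taken against the same untreated Control gRNA libraries, so the shared direction is no separate result. In JUN gRNA, ABCC10 held 51.7, 57.3, 56.8, 49.3 and 60.9 CPM untreated and 50.7, 42.3, 46.0, 53.6 and 62.7 with vincristine, a change of -0.11 ± 0.07 that was not called (edgeR adjusted p = 0.295). It was called without JUN gRNA vincristine 5 (-0.20, adjusted p = 0.019) and with limma voom (adjusted p = 0.036).

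In WT, ABCC10 held 30.5, 34.5, 31.8 and 37.9 CPM untreated and 31.7, 27.4, 32.2 and 16.8 with vincristine. The change of -0.31 ± 0.13 was not called (edgeR adjusted p = 0.063), and it was -0.14 without WT vincristine 4, which held the value of 16.8. Without the filter, or without WT untreated 1 or WT vincristine 1 or 3, it was called (adjusted p = 0.019 to 0.049). Untreated, ABCC10 stood at -0.38 ± 0.13 in LZK KO against WT (edgeR adjusted p = 0.021; 1 of 5 members against 33.9% of all genes) and at -0.32 ± 0.13 in DLK KO (adjusted p = 0.046). The first call was lost without WT untreated 4 (adjusted p = 0.062) or LZK KO untreated 2 (adjusted p = 0.089). The second was lost with the replicate block (adjusted p = 0.063) and without WT untreated 2, 3 or 4 or DLK KO untreated 1, 2 or 4 (adjusted p = 0.055 to 0.16).

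ABCC1, which exports glutathione conjugates and can carry vincristine together with glutathione, fell with vincristine in WT. ABCC1 (ENSG00000103222.18, chromosome 16, 15949577 to 16143074, plus strand) held 17.5, 15.7, 18.7 and 17.6 CPM untreated and 12.3, 11.3, 15.1 and 12.4 with vincristine. The groups did not overlap, and the change was -0.44 ± 0.11 (edgeR adjusted p = 0.0022), or -0.43 (adjusted p = 0.0041) without WT vincristine 4. It was called under all 15 alternatives run for that comparison. In Control gRNA it stayed at 18.0 to 22.8 CPM untreated and 17.2 to 20.9 with vincristine, a change of -0.07 ± 0.08 (edgeR adjusted p = 0.51).

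Among the knockout lines ABCC1 was highest in DLK KO, at 20.9, 21.5, 20.2 and 26.9 CPM untreated and 24.9, 22.7, 18.7 and 20.8 with vincristine. Untreated it was 0.36 ± 0.11 above WT (edgeR adjusted p = 0.0074), a call lost without DLK KO untreated 4 (adjusted p = 0.052), and after vincristine 0.77 ± 0.11 above WT (adjusted p = 4.1e-07). In untreated double KO it held 12.5, 14.7, 12.7 and 12.7 CPM, a difference of -0.40 ± 0.11 from WT (edgeR adjusted p = 0.0026). For the difference in response against WT, edgeR called none of 5 members in DLK KO (19.4% of all genes) or LZK KO (12.4%). There 3 and 2 had an unadjusted p under 0.05, DESeq2 called 0 and 1, and limma voom 2 and 3. The shares of all genes are those of edgeR at the adjusted threshold, so the other counts have no share to be read against. ABCC1 was closest to the threshold, at 0.41 ± 0.15 (adjusted p = 0.057) and 0.45 ± 0.16 (adjusted p = 0.061), and was called in both without WT vincristine 3. It was also called without DLK KO untreated 4 or DLK KO vincristine 3 in the first, and without LZK KO untreated 3 or LZK KO vincristine 2 in the second (adjusted p = 0.019 to 0.035). For the double KO against DLK KO no member was called by any of these tools, with 0 at an unadjusted p under 0.05 and 1.14% of all genes called.

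ABCC4, an exporter of cyclic nucleotides and prostaglandins, differed between lines and was called in no vincristine effect. ABCC4 (ENSG00000125257.14, chromosome 13, 95019829 to 95301475, minus strand) held 4.49, 6.06, 6.53 and 6.66 CPM in untreated WT and 3.25, 3.69, 3.98 and 3.55 in untreated DLK KO, with no overlap and a difference of -0.72 ± 0.20 (edgeR adjusted p = 0.0041). With vincristine the double KO held 7.51, 9.66, 9.02 and 7.98 CPM, all above the 4.76, 2.88, 5.04 and 6.58 of WT, a difference of 0.85 ± 0.18 (adjusted p = 0.00014), or 1.03 without WT vincristine 4. Its fall in WT, -0.32 ± 0.19, was not called (edgeR adjusted p = 0.21) but was called without WT vincristine 4 (-0.50, adjusted p = 0.042). In vincristine-treated ATF2 gRNA the libraries held 0.282, 2.60, 1.22 and 2.49 CPM, a difference of -0.86 ± 0.31 from Control gRNA (edgeR adjusted p = 0.019) that was lost without ATF2 gRNA vincristine 2 (-0.51, adjusted p = 0.10) or 4 (adjusted p = 0.075) and with only the groups compared (adjusted p = 0.093).

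ABCC2, an exporter of conjugates best known from the bile-facing membrane of hepatocytes, was scarce. ABCC2 (ENSG00000023839.10, matched by symbol without its version, chromosome 10) held 0.623, 0.238, 0.873, 1.34 and 1.20 CPM in untreated Control gRNA and 1.54, 1.27, 1.35, 1.73 and 2.98 with vincristine. It rose by 1.04 ± 0.36 (edgeR adjusted p = 0.019), with ranges that overlap at 1.27 to 1.34 CPM. The call was lost without Control gRNA untreated 1 (adjusted p = 0.052), Control gRNA untreated 2 (adjusted p = 0.065) or Control gRNA vincristine 5 (0.78, adjusted p = 0.10). In WT it held 0.860, 1.21, 0.983 and 0.894 CPM untreated and 1.42, 1.44, 1.83 and 1.40 with vincristine, on 9 to 21 counts. Those groups did not overlap, but the change of 0.62 ± 0.41 was not called (edgeR adjusted p = 0.275). In vincristine-treated JUN gRNA it stood at -0.96 ± 0.35 against Control gRNA (edgeR adjusted p = 0.038), a call lost with limma voom (adjusted p = 0.070), without the filter (adjusted p = 0.054) and without Control gRNA vincristine 4 or 5 or JUN gRNA vincristine 1, 2 or 5 (adjusted p = 0.056 to 0.17).

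**Figure D5:**
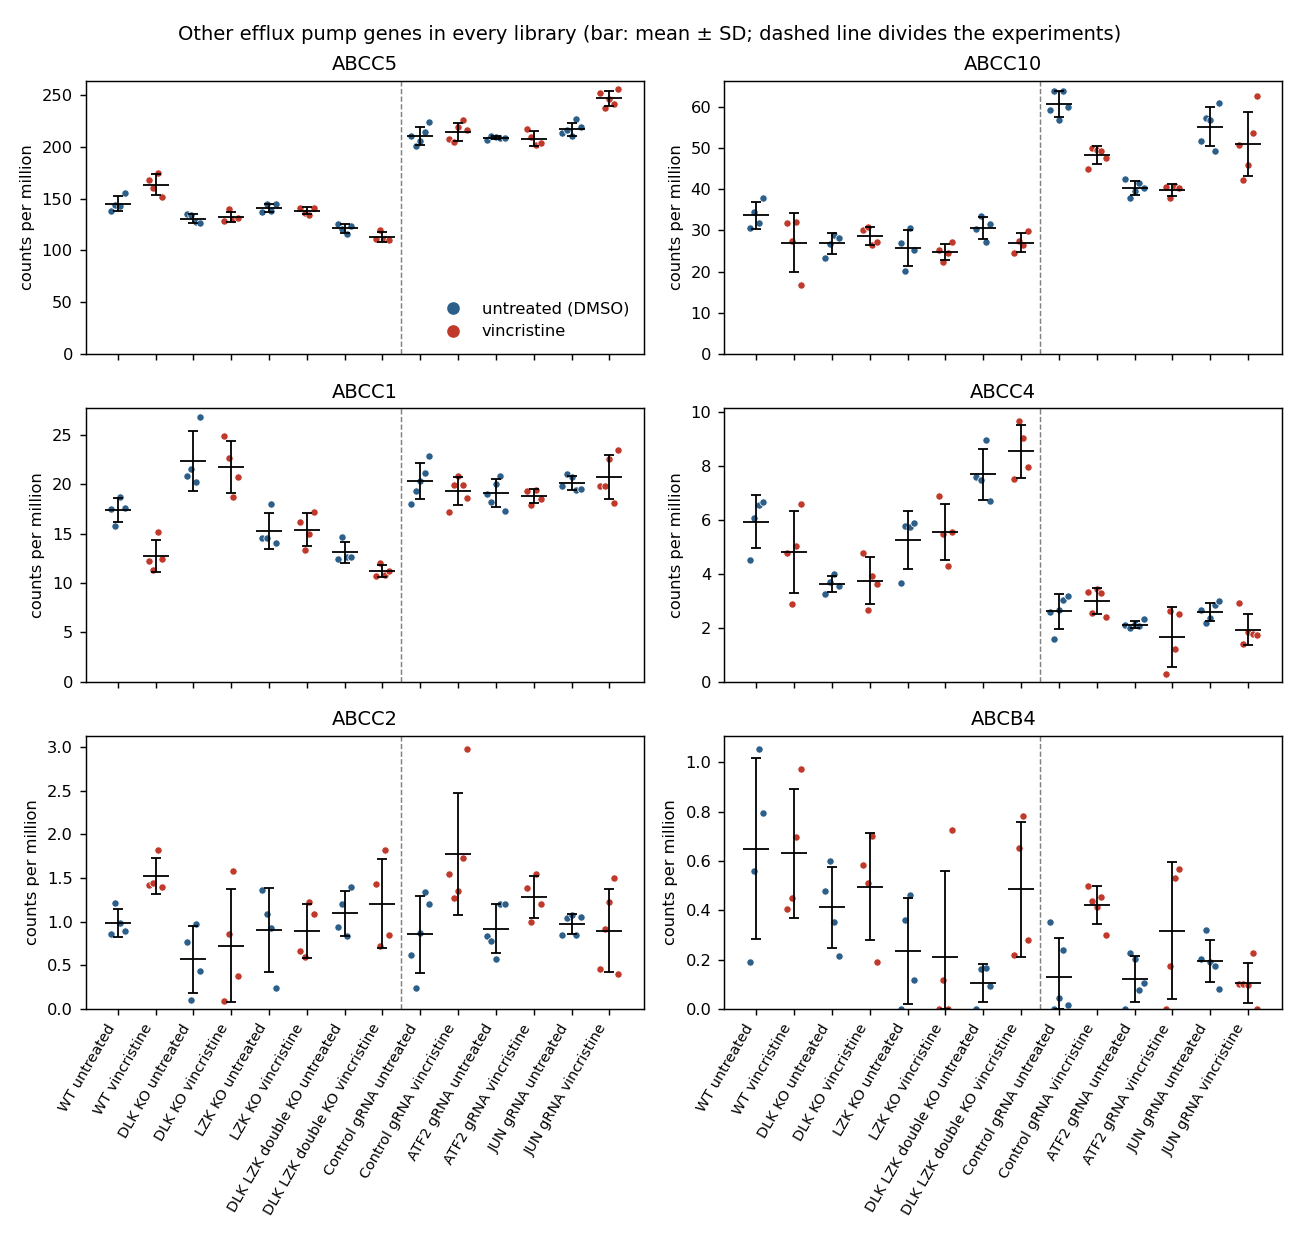
Levels of ABCC5, ABCC10, ABCC1, ABCC4, ABCC2 and ABCB4 in each library, as CPM with the mean ± SD, on axes that start at 0, with blue for untreated, red for vincristine and a dashed line between the experiments. ABCC10 in Control gRNA falls from 56.8 to 63.9 CPM to 44.8 to 50.1 CPM, and ABCC5 in JUN gRNA rises from 210.7 to 226.8 CPM to 238.0 to 256.2 CPM.

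The remaining 3 pump genes were at or near the floor of the libraries. ABCB4, the phosphatidylcholine exporter of the bile canaliculus, had at most 15 counts in a library of experiment 1 and 0 counts in 4 of 32. In experiment 2 it had 17, 0, 3, 11 and 1 counts in untreated Control gRNA and 44, 28, 24, 28 and 12 with vincristine. The change was 1.68 ± 0.91 and was not called (edgeR adjusted p = 0.16), though limma voom called it (2.51, adjusted p = 0.0025), and the CPM ranges, at most 0.353 untreated and at least 0.298 with vincristine, overlap only in part. ABCC3, a conjugate exporter of the blood-facing membrane of liver and gut cells, had at most 7 counts in experiment 1 and 8 in experiment 2, with 0 in 11 of 32 and 23 of 29 libraries. ABCG2 had at most 5 and 10 counts, with 0 in 10 of 32 and 22 of 29 libraries, among them every untreated Control gRNA and JUN gRNA library and all 4 vincristine libraries of ATF2 gRNA. Neither gene was tested, and neither passed 10 counts in any library. For untreated JUN gRNA against Control gRNA no member was called with edgeR, DESeq2 or limma voom (1 of 6 with an unadjusted p under 0.05; 11.2% of all genes called).

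Of 39 other ABC genes, 28 were tested in WT, where 4 were higher and 5 lower, and 32 in Control gRNA, where 2 were higher and 5 lower. That is 9 called of 28, where 30.2% of all genes were called, and 7 of 32, where 35.3% were. Their median log2 change was -0.15 and -0.05, against 0.00 and 0.03 over all tested genes. ABCA1, a cholesterol exporter gene, rose by 0.81 ± 0.11 in WT (edgeR adjusted p = 5.3e-07), and ABCA10 by 0.68 ± 0.24 (adjusted p = 0.027). ABCD2, a peroxisomal fatty acid transporter gene, fell by 0.63 ± 0.19 in WT (edgeR adjusted p = 0.0083), and ABCB6 by 0.60 ± 0.22 (adjusted p = 0.038). ABCA5 rose by 0.54 ± 0.09 in Control gRNA (edgeR adjusted p = 1.8e-06), and ABCA6 stood at 1.53 ± 0.63 (adjusted p = 0.053). ABCB8, a mitochondrial transporter gene, fell there by 0.39 ± 0.07 (edgeR adjusted p = 8.7e-06), and ABCF1, which acts in translation, by 0.38 ± 0.04 (adjusted p = 8.4e-11).

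Among 18 genes listed as regulators of efflux pump genes, 16 were tested, and 5 were higher and 1 lower in both WT and Control gRNA (median log2 change 0.03 and 0.09). These 6 called of 16 stand near the 30.2% and 35.3% of all genes called. EGR1, an early-response transcription factor gene, rose by 4.01 ± 0.16 in WT and 3.20 ± 0.11 in Control gRNA (edgeR adjusted p = 1.0e-18 and 1.9e-18). It also rose by 2.92 ± 0.10 in JUN gRNA (edgeR adjusted p = 2.7e-17) and 0.41 ± 0.10 in ATF2 gRNA (adjusted p = 0.0088), and in the double KO it stood at 0.06 ± 0.23 (adjusted p = 0.97). NR3C1, the glucocorticoid receptor gene, rose by 1.04 ± 0.16 in WT and 1.00 ± 0.09 in Control gRNA (edgeR adjusted p = 3.1e-06 and 3.0e-12). HIF1A, the hypoxia factor gene, fell by 0.39 ± 0.07 in WT (edgeR adjusted p = 3.6e-05), and YBX1, an RNA- and DNA-binding protein gene, by 0.27 ± 0.03 in Control gRNA (adjusted p = 3.4e-10). KEAP1, a sensor of oxidative stress, stood at -0.16 ± 0.10 in WT (edgeR adjusted p = 0.23) and -0.03 ± 0.06 in Control gRNA (adjusted p = 0.75).

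Of 18 other drug-handling genes, 14 were tested, with 0 higher and 4 lower in WT and 1 higher and 5 lower in Control gRNA (median log2 change -0.11 in both). The 4 and 6 called of 14 stand beside the same shares of all genes, 30.2% and 35.3%. SLCO3A1, an organic anion uptake carrier gene, fell by 0.93 ± 0.12 in WT and 0.67 ± 0.07 in Control gRNA (edgeR adjusted p = 4.5e-08 and 1.8e-10). POR, the reductase that supplies electrons to cytochromes P450, fell by 0.66 ± 0.11 in WT (edgeR adjusted p = 6.9e-06). GCLM, a subunit of the enzyme that limits glutathione synthesis, rose by 0.62 ± 0.10 in Control gRNA (edgeR adjusted p = 1.4e-06) and stood at 0.01 ± 0.14 in WT (adjusted p = 0.98). GSTM2, a glutathione transferase gene, fell by 0.57 ± 0.15 in Control gRNA (edgeR adjusted p = 0.0019) and stood at -0.02 ± 0.16 in WT (adjusted p = 0.95).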

How the data were processed

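RNA was measured in 61 libraries in 14 groups. The values are raw read counts per gene, as the authors deposited them with a table for each experiment. Per the submitters' processing notes, cutadapt 3.4, STAR, featureCounts and Subread 2.0.1 were used with GRCh38. The strand setting and the handling of duplicates and of reads that match several genes are not given in the sources used here. This matters for ABCB1 against ABCB4 and for genes on opposite strands. Of 58440 identifiers, 56992 matched GENCODE 29 with their version, and 58320 received a symbol. ABCB4 and ABCC2 matched without their version, and the start listed for ABCC2 differs from GENCODE 29. There were 0 unused sample columns.

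The members and gene lists were chosen with earlier results of these data known. Each experiment was fitted with edgeR 4.0.16 (R 4.3.3; filterByExpr by group, TMM, robust quasi-likelihood test, all groups in 1 fit; 2-sided, Benjamini-Hochberg over all tested genes, threshold 0.05). The code was also run on counts simulated from edgeR's own estimates of spread. Such counts hold no clone or differentiation effects, so that run cannot speak to them. Named were all 9 members, the targeted genes, the top 5 genes by likeness to ABCB1, tested neighbours within 500 kb and, from each list, genes called in at least 1 vincristine effect that had the 2 largest or 2 smallest changes in WT or Control gRNA, of which 1 is not reported here. Log2 CPM used a prior count of 2. SE is the log2 fold change over the square root of F. Groups had 4 or 5 libraries. Of 104 pairs of replicates, 0 were identical. Promoter windows are RefSeq's (6 of 9 members matched). Alternatives were RLE factors, DESeq2 1.42.0, limma 3.58.1 voom with sample quality weights (which changes test and weighting together), other filters, a replicate block, fewer groups and leaving out each library. Tables used data.table (version 1.17.8), and figures matplotlib 3.10.9 with Python 3.11.15.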

Additional observations from a re-analysis of the deposited data

Results flagged for a closer look

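Each of the 9 pump genes was checked in each group for a library whose gap to its nearest neighbour took up most of the range of the group. Groups with no library above 3 counts were left out. This marked 11 of 109 combinations of gene and group. The cut-off marks about 1 in 20 where values are normally distributed, which low counts need not be, so no excess can be read from this.

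ABCB1 was high in DLK LZK double KO vincristine 1, at 10.2 CPM. ABCB4 was high in LZK KO vincristine 4, at 0.726 CPM (6 counts). ABCC1 was high in LZK KO untreated 3, at 18.0 CPM, and in DLK LZK double KO untreated 2, at 14.7 CPM. ABCC2 was high in WT vincristine 3, at 1.83 CPM, and in Control gRNA vincristine 5, at 2.98 CPM. ABCC4 was low in LZK KO untreated 1, at 3.64 CPM, and high in JUN gRNA vincristine 1, at 2.92 CPM. ABCC5 was high in DLK LZK double KO vincristine 2, at 120.1 CPM, and ABCC10 was low in ATF2 gRNA vincristine 3, at 37.8 CPM. ABCG2 had 9 counts in JUN gRNA vincristine 4, at 0.157 CPM, and 0 in the other 4 libraries of that group.

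The tested response to vincristine differed between lines for 2 genes. The ABCC5 response in the double KO was -0.28 on the log2 scale against that of WT. In experiment 2 the ABCC5 response in JUN gRNA was 0.16 above that of Control gRNA, and that of ATF2 gRNA was -0.19 against JUN gRNA. The ABCC10 response in ATF2 gRNA was 0.31 above that of Control gRNA.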

How the results depend on the processing

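Counts are of members other than ABCB1 called, and the direction of no called member changed under any alternative. The share of all genes called was taken for the main edgeR fit only. Whether that share moved with these counts was not tested. Without the filter, the members that had fallen below it were tested too. With limma voom and sample quality weights, which change test and weighting together, the count was 2 for the response difference of DLK KO against WT, 3 for LZK KO against WT (1 with DESeq2), 2 for the double KO against WT and 2 for JUN gRNA against Control gRNA. With limma voom it was also 2 for vincristine in JUN gRNA and 2 for vincristine-treated LZK KO. Without the filter it was 0 for the response differences of the double KO against WT, JUN gRNA against Control gRNA and ATF2 gRNA against JUN gRNA, and 2 for ATF2 gRNA against Control gRNA. Without the filter it was also 2 for untreated LZK KO, 4 for untreated double KO, 2 for untreated ATF2 gRNA and 1 for vincristine-treated JUN gRNA. With only the groups compared it was 1 for vincristine in WT, 0 for ATF2 gRNA against JUN gRNA, 1 for vincristine-treated ATF2 gRNA and 4 for vincristine-treated JUN gRNA.

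Leaving out 1 library at a time, the count ran from 0 to 1 for the response differences of DLK KO and LZK KO against WT and of ATF2 gRNA against JUN gRNA, from 1 to 2 for the double KO against WT and from 0 to 2 for JUN gRNA against Control gRNA. It ran from 1 to 4 for untreated DLK KO, 0 to 2 for untreated LZK KO, and 1 to 2 for vincristine in Control gRNA and in JUN gRNA and for vincristine-treated LZK KO, ATF2 gRNA and JUN gRNA. ABCB1 log2 changes ran from 0.84 to 1.92 for vincristine in LZK KO and from -3.31 to -2.22 for its difference from WT, both ends set by LZK KO untreated 3 and 2. They ran from -2.24 to -1.18 for untreated LZK KO against WT, and from -0.020 to 0.15 for vincristine in the double KO, where leaving out DLK LZK double KO untreated 2 turned the sign. Why these counts and values moved was not tested.

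Replicate numbers did not pair the samples. The mean of its group was first subtracted from each gene's log2 CPM. Correlations of what remained, between same-numbered untreated and vincristine libraries of a line, ran from -0.18 to 0.11. With the replicate block the count went from 4 to 3 for untreated DLK KO and from 2 to 3 for vincristine-treated DLK KO. For vincristine-treated DLK KO it was also 3 with DESeq2 and with limma voom. Counts were low for ABCC3, ABCG2 and, in experiment 1, for ABCB4 and untreated ABCB1. In the more deeply sequenced experiment 2, ABCC3 had 27 counts in all and ABCG2 30, against 59 and 51 in experiment 1. The part of depth in these low counts was not tested.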
